A study of Homo sapiens with 6 samples.

Results

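The genes described here encode the proteins that move zinc across membranes and hold it inside cells: the SLC30A family (ZnT proteins, which carry zinc out of the cytosol), the SLC39A family (ZIP proteins, which carry it in), the metallothioneins MT1 and MT2A, and the zinc sensor MTF1. They were chosen by symbol from a deposited count table of 23998 genes. The table holds 29 of them, made up of 9 SLC30A genes, 13 SLC39A genes, 6 metallothionein genes and MTF1. The cells are LNCaP, an established androgen-responsive human prostate cancer line. LNCaP-ENZR is an enzalutamide-resistant derivative, and LNCaP-WT is the untreated parental line, each with 3 libraries. Per the labels, the resistant cells came from more than 12 months of stepwise exposure to enzalutamide, an antiandrogen, between 5 and 50 µM. That medium held 10% serum stripped with charcoal. The growth protocol given for all 6 libraries names RPMI medium with 10% fetal bovine serum. Whether drug or stripped serum was present at harvest is not given in the sources used here, so drug history, serum and time in culture cannot be told apart. The labels name no separate clones or derivations, and the p-values measure the spread between libraries, which may be technical.

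Prostate epithelium is known for its high zinc content, which in the healthy gland is linked to the secretion of citrate, and prostate cancers typically hold less zinc. ZIP proteins raise cytosolic zinc by uptake from outside or release from organelles, and most ZnT proteins lower it by export or by loading vesicles or the Golgi. Metallothioneins are small cysteine-rich proteins that bind the metal. MTF1 is a transcription factor that senses zinc and induces metallothionein genes and the exporter gene SLC30A1 through metal response elements in their promoters.

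The libraries held 35790974 to 36610862 counts in LNCaP-ENZR and 34505712 to 35531519 in LNCaP-WT. Of the 29 genes, 23 passed edgeR's filter on low counts and were tested among 15422 genes. Levels are given as FPKM (deposited values scaled by gene length and library total, comparable between genes) or as CPM (counts scaled to TMM-adjusted library sizes, comparable between libraries). Means carry the SD with n = 3. Calls rest on edgeR's quasi-likelihood test with Benjamini-Hochberg adjustment and a threshold of 0.05. Positive log2 fold changes mean higher in LNCaP-ENZR than in LNCaP-WT. Over all tested genes 69.2% were called, 34.4% as higher and 34.8% as lower, and 72.2% had libraries that did not overlap between groups in CPM. Among the 23 tested zinc genes 17 were called, 7 higher and 10 lower, and 19 had libraries that did not overlap, shares close to that background. The median log2 fold change was 0.04 over these genes and -0.01 over all tested genes. All 12 listed genes of LNCaP and luminal prostate identity were tested. They summed to 672.4 to 702.5 FPKM in LNCaP-ENZR and 1177 to 1195 FPKM in LNCaP-WT. Of these 8 fell, 3 rose and 1 was not called. The largest fall was that of ACP3, at 0.657 ± 0.0977 FPKM in LNCaP-ENZR and 8.565 ± 0.386 FPKM in LNCaP-WT. The 9 leukocyte markers in the table summed to 0.328 to 0.435 FPKM in LNCaP-ENZR and 0.310 to 0.558 FPKM in LNCaP-WT. The 12 fibroblast and endothelial markers summed to 21.6 to 28.0 FPKM in LNCaP-ENZR and 23.9 to 26.8 FPKM in LNCaP-WT, and of 9 tested 1 rose, 2 fell and 6 were not called. The one that rose was VWF, at 3.44 ± 0.237 FPKM in LNCaP-ENZR and 0.0816 ± 0.0524 FPKM in LNCaP-WT. The 10 markers of the prostate lines PC-3 and DU145 summed to 28.6 to 29.9 FPKM in LNCaP-ENZR and 30.2 to 30.6 FPKM in LNCaP-WT, and of 5 tested 2 rose, 2 fell and 1 was not called. The 9 listed nuclear-retained and histone RNAs, of which 8 fell and 1 was not called, summed to 237.1 to 244.3 FPKM in LNCaP-ENZR and 601.7 to 622.5 FPKM in LNCaP-WT, and their part in the results below was not tested. In bulk RNA, fewer cells that express a gene and less RNA per cell cannot be told apart.

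**Figure D1:**
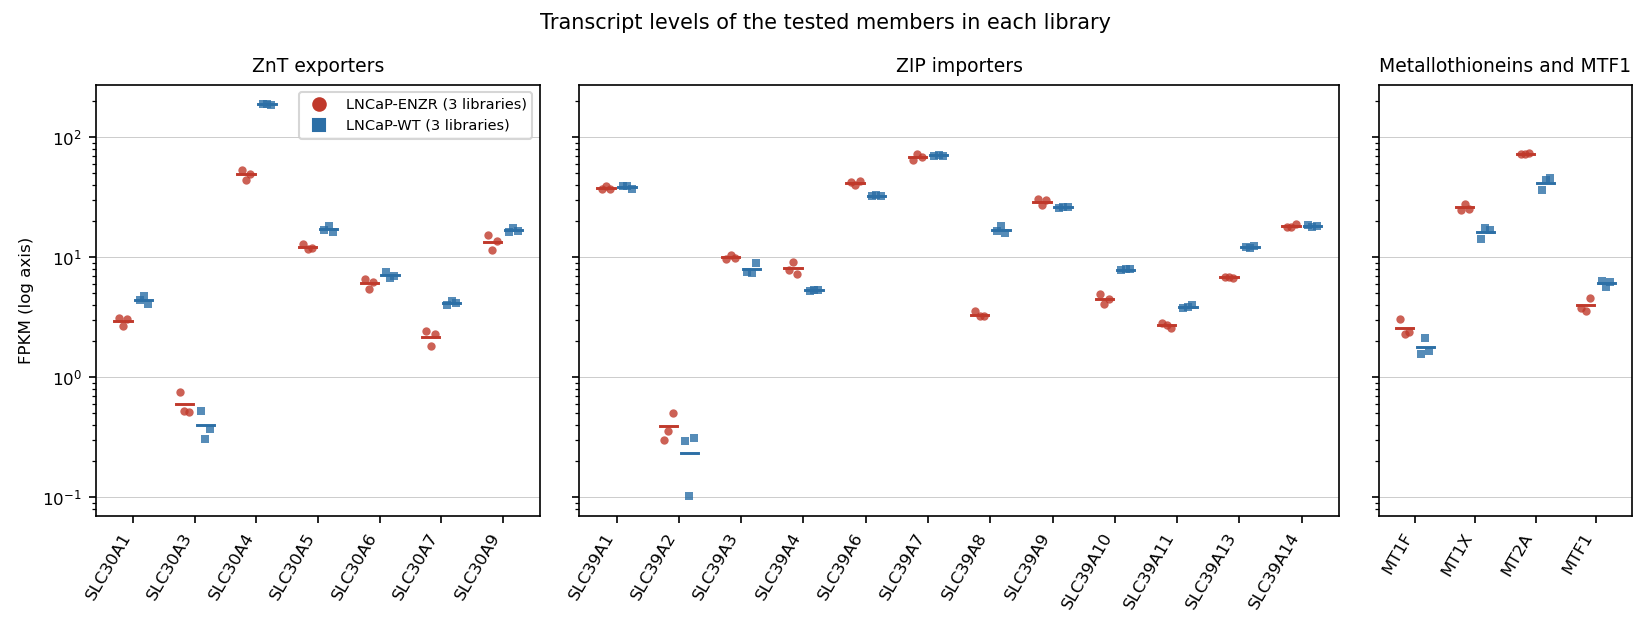
Levels of the 23 tested zinc genes in FPKM on a log axis, with circles for the 3 LNCaP-ENZR libraries, squares for the 3 LNCaP-WT libraries and a line at each group's mean. SLC30A4 is the highest gene in LNCaP-WT at 186.8 FPKM and stands at 48.9 FPKM in LNCaP-ENZR.

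Among the exporters the main change was in SLC30A4, the gene for ZnT4, which loads zinc into secretory and endosomal vesicles. It had 490.2, 412.8 and 456.9 CPM in LNCaP-ENZR, against 1647, 1639 and 1612 CPM in LNCaP-WT. Every LNCaP-ENZR library lay far below every LNCaP-WT library, and the gene fell 3.601-fold (log2 fold change -1.85 ± 0.058 SE, adjusted p = 2.2e-15). Per length, SLC30A4 averaged 48.9 ± 4.28 FPKM in LNCaP-ENZR and 186.8 ± 1.70 FPKM in LNCaP-WT, which placed it at rank 1123 and rank 200 of the 15422 tested genes. It was the most abundant SLC30A transcript in both groups. It supplied 56.7 ± 0.289% of the summed SLC30A level in FPKM in LNCaP-ENZR and 79.0 ± 0.501% in LNCaP-WT. The gene lies on the minus strand at chr15:45479611-45522807 (GRCh38, GENCODE release 29), and 4.32% of its exonic bases are shared with 2 genes on the other strand. Whether counting used strand is not given in the sources used here.

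Other exporters fell less. SLC30A7, which carries zinc into the early secretory pathway, had 24.3, 18.5 and 23.1 CPM in LNCaP-ENZR, against 38.1, 40.9 and 39.4 CPM in LNCaP-WT (1.80-fold lower, log2 fold change -0.85 ± 0.091 SE, adjusted p = 1.3e-07). SLC30A1, the zinc exporter of the plasma membrane, had 19.1, 16.4 and 18.5 CPM in LNCaP-ENZR, against 25.1, 27.2 and 23.3 CPM in LNCaP-WT. It fell with no overlap between groups (log2 fold change -0.49 ± 0.090 SE, adjusted p = 9e-05). SLC30A5, which pairs with SLC30A6 to supply zinc to enzymes of the secretory pathway, averaged 58.7 ± 2.84 CPM in LNCaP-ENZR and 78.1 ± 4.76 CPM in LNCaP-WT and fell 1.33-fold (adjusted p = 1.6e-05). Its partner SLC30A6 averaged 45.4 ± 4.18 CPM in LNCaP-ENZR and 49.8 ± 2.86 CPM in LNCaP-WT, was not called (log2 fold change -0.13 ± 0.076 SE, adjusted p = 0.12) and had overlapping libraries. It was called lower without LNCaP-ENZR 1 (adjusted p = 0.040), and over the alternatives its adjusted p ran from 0.016 to 0.66.

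The mitochondrial exporter gene SLC30A9 averaged 13.4 ± 1.93 FPKM in LNCaP-ENZR and 16.7 ± 0.683 FPKM in LNCaP-WT, close to SLC30A5 at 12.1 FPKM in LNCaP-ENZR and 17.1 FPKM in LNCaP-WT. It had 106.2, 79.8 and 95.2 CPM in LNCaP-ENZR, against 105.8, 114.8 and 108.5 CPM in LNCaP-WT, so LNCaP-ENZR 1 overlapped LNCaP-WT 1. It was called lower (log2 fold change -0.23 ± 0.083 SE, adjusted p = 0.024), but not without LNCaP-ENZR 2 (adjusted p = 0.11), without LNCaP-WT 2 (adjusted p = 0.064) or with an offset for gene length (adjusted p = 0.091). Over the alternatives its adjusted p ran from 0.00039 to 0.11. SLC30A3, known as the zinc loader of synaptic vesicles, was the one exporter called higher, from a low level. Its counts were 100, 71 and 68 in LNCaP-ENZR, against 67, 40 and 48 in LNCaP-WT (log2 fold change 0.66 ± 0.27 SE, adjusted p = 0.036). Its libraries did not overlap in CPM, by a narrow margin. That call was lost in 7 of 17 alternatives, among them without LNCaP-ENZR 1 (adjusted p = 0.17), without LNCaP-WT 2 (0.12) and without LNCaP-WT 3 (0.082), and the adjusted p ran from 0.011 to 0.17. SLC30A10, mainly a manganese exporter, had 21 counts over the LNCaP-ENZR libraries and 15 over the LNCaP-WT libraries, a ratio of 1.44 with a 95% exact counting interval of 0.708 to 3.01. SLC30A8, the exporter of pancreatic beta cells, had 1 count in LNCaP-ENZR and 0 in LNCaP-WT. Neither was tested, and a count of 0 allows up to 3 counts. In all, 5 of the 7 tested exporters fell, 1 rose and 1 was not called, against 34.8% lower and 34.4% higher over all tested genes. The exporters' log2 fold changes had a median of -0.41. With scaling by library totals alone, 6 fell and 0 rose. SLC30A4 alone fell at least 2-fold among them, as did 11.9% of all tested genes.

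**Figure D2:**
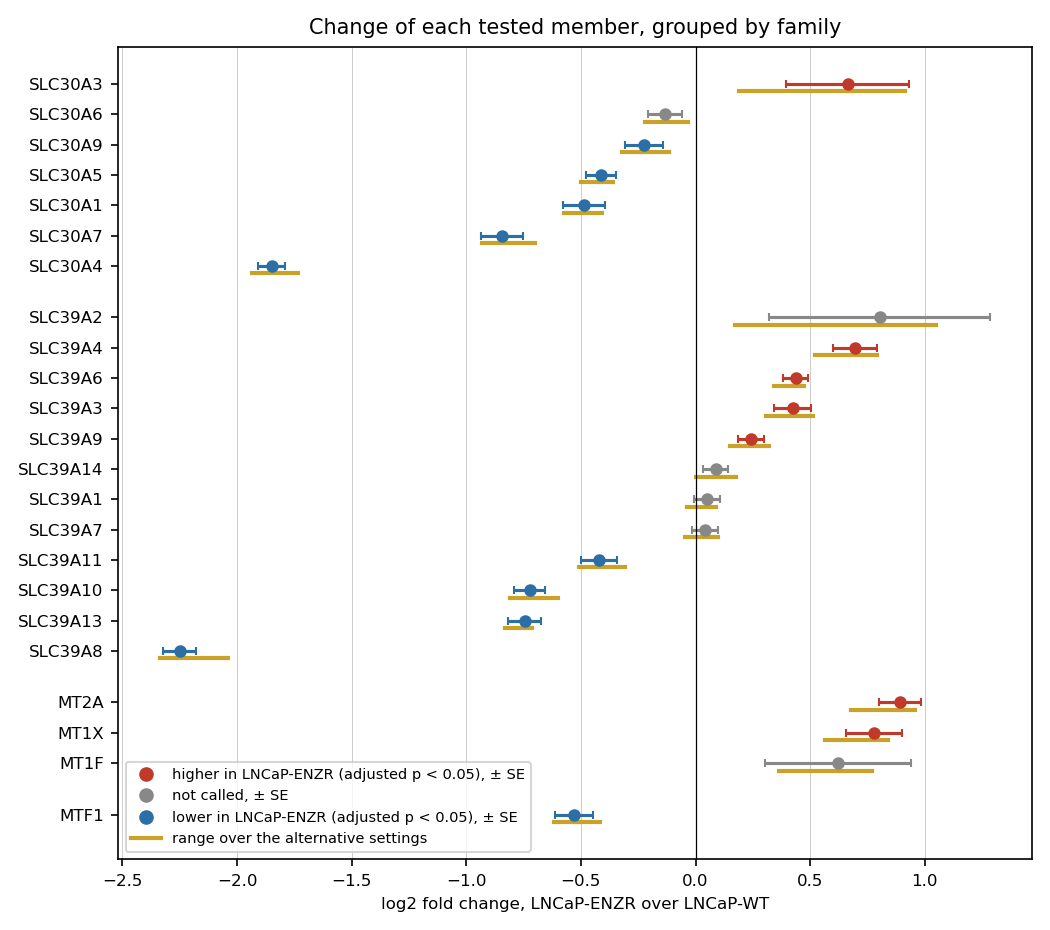
Log2 fold change of each tested zinc gene, LNCaP-ENZR over LNCaP-WT, with points and bars for the edgeR estimate ± SE coloured by call, and yellow lines for the range over the alternative settings. SLC39A8 at -2.25 and SLC30A4 at -1.85 stand apart at the low end, and MT2A at 0.89 is the highest of the called genes.

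The importers moved in both directions, 4 higher, 4 lower and 4 not called of 12 tested. Over all tested genes 34.4% were called higher and 34.8% lower. The importers' log2 fold changes had a median of 0.07. SLC39A8, the gene for ZIP8, which carries zinc, manganese and cadmium, changed most. It had 26.5, 23.9 and 23.7 CPM in LNCaP-ENZR, against 115.8, 126.4 and 110.4 CPM in LNCaP-WT. The groups were widely separated, with a 4.76-fold fall (log2 fold change -2.25 ± 0.072 SE, adjusted p = 2e-15). In FPKM it made up 1.45 ± 0.108% of the summed SLC39A level in LNCaP-ENZR and 7.01 ± 0.411% in LNCaP-WT. The gene lies at chr4:102251041-102431258 on the minus strand. SLC39A14, its closest functional relative, which also carries iron and manganese, had 115.0, 115.6 and 122.2 CPM in LNCaP-ENZR, against 113.8, 108.6 and 109.8 CPM in LNCaP-WT. Its libraries did not overlap by a narrow margin, and it was not called (log2 fold change 0.09 ± 0.055 SE, adjusted p = 0.17). With an offset for gene length it was called higher (log2 fold change 0.18, adjusted p = 0.0035), and over the alternatives its adjusted p ran from 0.0035 to 0.99.

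A further 3 importers fell by less than 2-fold. SLC39A13, a zinc importer of the Golgi and vesicles needed for connective tissue, had 21.4, 21.6 and 21.1 CPM in LNCaP-ENZR, against 36.3, 35.04 and 36.2 CPM in LNCaP-WT (1.68-fold lower, log2 fold change -0.75 ± 0.074 SE, adjusted p = 3.2e-08). SLC39A10, an importer of the plasma membrane, averaged 51.2 ± 4.84 CPM in LNCaP-ENZR and 84.6 ± 0.872 CPM in LNCaP-WT and fell 1.65-fold (adjusted p = 1.8e-08). SLC39A11 averaged 23.9 ± 1.39 CPM in LNCaP-ENZR and 31.9 ± 0.826 CPM in LNCaP-WT and fell 1.34-fold (adjusted p = 8e-05). In each of these genes the libraries of the groups did not overlap.

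The importers that rose did so modestly. SLC39A4, the intestinal zinc importer that is mutated in acrodermatitis enteropathica, had 22.5, 26.5 and 20.9 CPM in LNCaP-ENZR, against 14.2, 14.5 and 14.4 CPM in LNCaP-WT (1.62-fold higher, log2 fold change 0.70 ± 0.096 SE, adjusted p = 2.8e-06). SLC39A6, also called LIV-1 and known as an oestrogen-regulated gene in breast cancer, had 158.6, 149.1 and 159.1 CPM in LNCaP-ENZR, against 114.1, 116.9 and 113.9 CPM in LNCaP-WT. It rose 1.35-fold (log2 fold change 0.44 ± 0.054 SE, adjusted p = 6.6e-07), whereas SLC39A10, with which its protein forms a complex, fell. SLC39A3 averaged 40.7 ± 1.74 CPM in LNCaP-ENZR and 30.4 ± 3.12 CPM in LNCaP-WT and rose 1.34-fold (adjusted p = 1.1e-04). SLC39A9, an importer of the Golgi and plasma membrane, averaged 172.9 ± 9.56 CPM in LNCaP-ENZR and 146.2 ± 1.87 CPM in LNCaP-WT and rose 1.18-fold (adjusted p = 7.1e-04).

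Among the importers not called were SLC39A7 and SLC39A1. SLC39A7, which releases zinc from the endoplasmic reticulum, averaged 68.2 ± 4.45 FPKM in LNCaP-ENZR and 70.3 ± 0.848 FPKM in LNCaP-WT and headed the family in both groups. Its log2 fold change was 0.04 ± 0.057 SE (adjusted p = 0.51). The small differences in both genes turned negative with scaling by library totals, without a call. SLC39A1, regarded as the main zinc importer of prostate epithelium, had 115.5, 121.8 and 113.8 CPM in LNCaP-ENZR, against 115.5, 114.9 and 109.1 CPM in LNCaP-WT. The groups overlapped (log2 fold change 0.05 ± 0.056 SE, adjusted p = 0.45), and the 95% interval of the log2 fold change, from its SE, ran from -0.06 to 0.16. In GENCODE release 29, 56.3% of the 75-base stretches of SLC39A1 transcripts also occur in transcripts of other annotated genes. The chief one is a protein-coding gene on the same strand. If the annotation used for counting held that gene, the counts of SLC39A1 depend on how such reads were handled. Which annotation was used is not given in the sources used here. SLC39A2 was scarce, with 15, 18 and 25 counts in LNCaP-ENZR, against 14, 5 and 15 in LNCaP-WT, and was not called (log2 fold change 0.80 ± 0.48 SE, adjusted p = 0.15), although its libraries did not overlap in CPM. SLC39A5, expressed mainly in pancreas and liver, had 0 counts in LNCaP-ENZR and 6 in LNCaP-WT and was not tested. With the 0 set to a floor of 3 counts over the group and the 6 taken as exact, it was 1.94-fold lower. Neither edgeR without a filter (adjusted p = 0.082) nor the DESeq2 Wald test (adjusted p = 0.25) called SLC39A5.

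**Figure D3:**
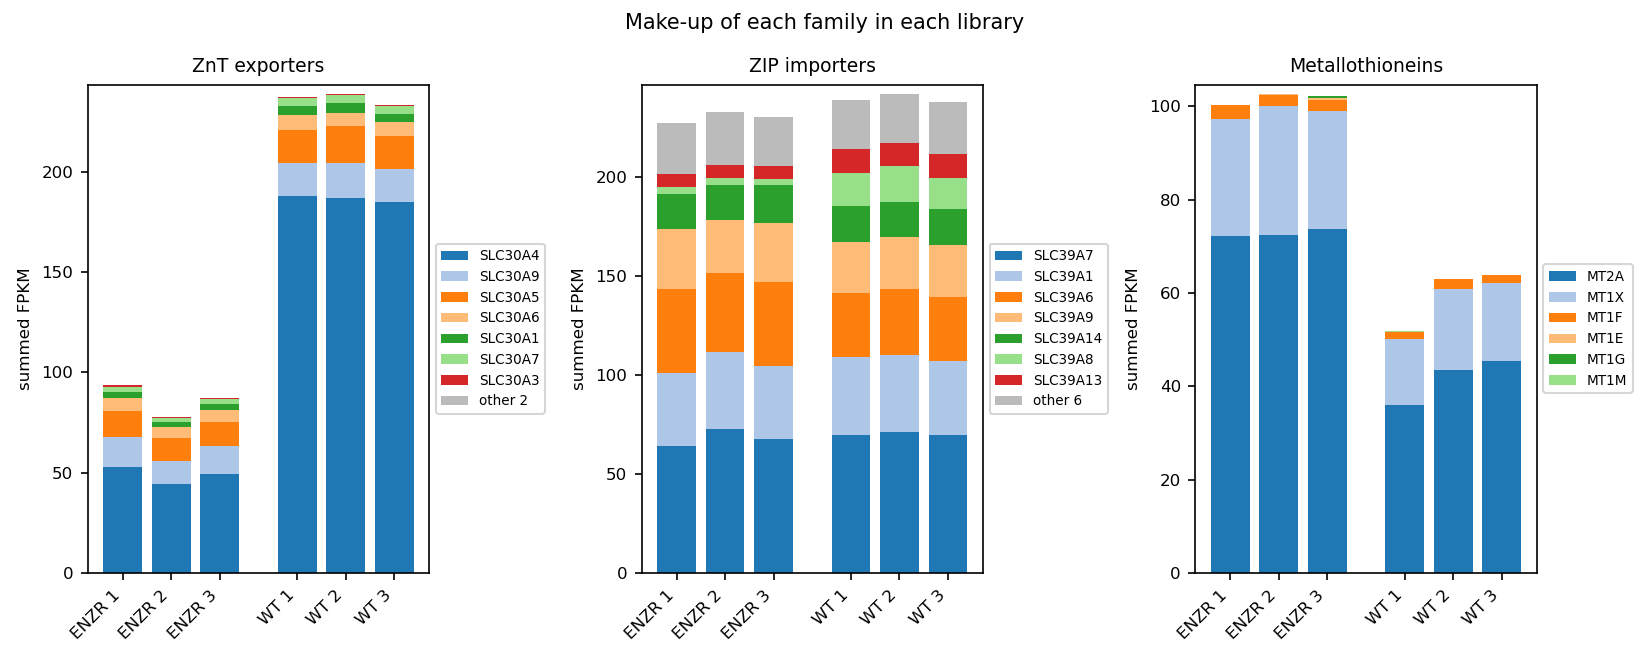
Summed FPKM of each family in each library, LNCaP-ENZR to the left of LNCaP-WT, stacked by gene, with the genes beyond the 7 most abundant of a family combined in grey. The SLC30A total is lower in LNCaP-ENZR, chiefly through SLC30A4, the SLC39A totals lie close together, and the metallothionein total is higher in LNCaP-ENZR.

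Summed over each family, SLC30A transcripts came to 93.6, 77.8 and 87.1 FPKM in LNCaP-ENZR, against 237.5, 238.8 and 233.3 FPKM in LNCaP-WT. Without SLC30A4 the sums were 37.3 ± 3.66 FPKM in LNCaP-ENZR and 49.8 ± 1.66 FPKM in LNCaP-WT. The SLC39A sums were 227.3, 233.1 and 230.6 FPKM in LNCaP-ENZR, against 239.1, 242.1 and 238.3 FPKM in LNCaP-WT, a mean ratio of 0.961. The ratio of importer to exporter transcripts was therefore 2.69 ± 0.286 in LNCaP-ENZR and 1.01 ± 0.00757 in LNCaP-WT. These sums are descriptions of transcript levels and weight each gene by its abundance. FPKM leaves out the TMM factors, which ran from 0.9661 to 0.9757 in LNCaP-ENZR and from 1.0285 to 1.0332 in LNCaP-WT. Scaling with them raises the LNCaP-ENZR sums relative to LNCaP-WT, so the direction of the small SLC39A difference depends on the scaling. The ratio of importer to exporter transcripts within a library does not.

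Of the 3 metallothionein genes tested, 2 rose and 1 was not called. Over all tested genes 34.4% were called higher and 69.2% in either direction. The other 3 metallothioneins in the table were too scarce to test. MT2A, the most abundant member in both groups, had 29.9, 30.1 and 30.3 CPM in LNCaP-ENZR, against 14.03, 16.97 and 17.7 CPM in LNCaP-WT. It rose 1.85-fold (log2 fold change 0.89 ± 0.091 SE, adjusted p = 4.8e-08). MT1X had 10.4, 11.6 and 10.5 CPM in LNCaP-ENZR, against 5.55, 6.82 and 6.53 CPM in LNCaP-WT, and rose 1.72-fold (log2 fold change 0.78 ± 0.12 SE, adjusted p = 1.4e-05). Neither gene's groups overlapped, and both stayed called under all 17 alternatives. Per length, MT2A averaged 72.8 ± 0.753 FPKM in LNCaP-ENZR and 41.7 ± 5.01 FPKM in LNCaP-WT, and MT1X averaged 25.9 ± 1.49 FPKM in LNCaP-ENZR and 16.1 ± 1.70 FPKM in LNCaP-WT. MT2A gave 71.6 ± 0.855% of the summed metallothionein level in LNCaP-ENZR and 70.0 ± 1.13% in LNCaP-WT. The gene lengths implied by the deposited FPKM are short, at 401 bases for MT2A and 404 for MT1X. The GENCODE models used for overlaps are longer, with 1299 exonic bases for MT2A and 1773 for MT1X. The shortest 10th of tested genes had a median log2 fold change of 0.22. With an offset for gene length the log2 fold changes were 0.68 for MT2A (adjusted p = 7.5e-07) and 0.56 for MT1X (adjusted p = 2.7e-04). The longest 10th of tested genes had a median log2 fold change of -0.14. The offset also shrank the falls of long genes, to -1.74 for SLC30A4 (9002 bases) and -0.42 for MTF1 (8872 bases), and both stayed called lower.

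The remaining metallothioneins were scarce. MT1F had 51, 39 and 40 counts in LNCaP-ENZR, against 25, 35 and 27 in LNCaP-WT. Its libraries did not overlap in CPM, but it was not called (log2 fold change 0.62 ± 0.32 SE, adjusted p = 0.090). Limma-trend on log2(FPKM + 0.1) called it higher (adjusted p = 0.011), and its adjusted p ran from 0.010 to 0.26 over the alternatives. MT1E had 2, 5 and 10 counts in LNCaP-ENZR, against 0, 1 and 1 in LNCaP-WT, a ratio of 8.75 with a 95% exact counting interval of 2.08 to 78.1. MT1G had 0, 1 and 8 counts in LNCaP-ENZR and none in LNCaP-WT. With that absence set to a floor of 3 counts over the group and the 9 LNCaP-ENZR counts taken as exact, the ratio was 3.09. LNCaP-ENZR 3 thus held most counts of both genes. Neither passed the filter. Without a filter edgeR called both higher (adjusted p = 0.047 for MT1E and 0.029 for MT1G), whereas DESeq2 called neither (adjusted p = 0.080 and 0.14). MT1M had 0 counts in LNCaP-ENZR and 1 in LNCaP-WT. Of the 75-base stretches of MT1X transcripts, 14.3% also occur in transcripts of other genes, with 5.73% for MT1G and 0 for MT2A. The first partner of MT1X is AC026461.1, a processed transcript on the same strand that overlaps 18.1% of its exonic bases, followed by MT1G and MT1XP1. These shares refer to the GENCODE models, which are longer than the lengths implied by the deposited FPKM. They may therefore differ for the gene models that were counted. Metallothionein genes resemble each other, and the partners of MT1G are MT1X, MT1H, MT1E, MT1XP1 and MT1M.

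MTF1, the factor that induces these genes in response to zinc, had 34.4, 32.9 and 41.6 CPM in LNCaP-ENZR, against 54.7, 49.1 and 53.6 CPM in LNCaP-WT. The groups did not overlap, and its transcript fell 1.44-fold (log2 fold change -0.53 ± 0.084 SE, adjusted p = 1.7e-05). Of the MTF1 target genes tested here, MT2A and MT1X rose, SLC30A1 fell and MT1F was not called.

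The upstream sequences of MT2A, MT1X and SLC30A1 are shown to compare their metal response elements. No promoter was matched for MT1F, MT1E, MT1G, MT1M, SLC30A8, SLC39A4 or SLC39A14. The only metallothioneins compared are therefore MT2A and MT1X, which both rose. RefSeq promoters on GRCh38.p14, from 250 bases before to 50 after each listed gene start, were matched by symbol for 22 of the 29 genes. They were searched on both strands for the metal response element core, spelled TGCACNC or TGCGCNC, counting overlapping matches separately. MT2A held 8 matches and MT1X 4, among 27305 genes of which 0.0256% held at least 8 and 0.736% at least 4. SLC30A1 held 2, and 10.2% of genes held at least 2. At least 1 match lay at any listed start of 13 of the 22 zinc genes (59.1%), against 33.4% of all genes. A palindromic steroid receptor element was found at none of the 22 and at 0.480% of all genes. The 250 bases before each start, written 5′ to 3′ on the gene's strand with core matches in capitals, lie at chr16:56608334-56608583 (plus strand) for MT2A, chr16:56682220-56682469 (plus strand) for MT1X and chr1:211579162-211579411 (minus strand) for SLC30A1.
MT2A: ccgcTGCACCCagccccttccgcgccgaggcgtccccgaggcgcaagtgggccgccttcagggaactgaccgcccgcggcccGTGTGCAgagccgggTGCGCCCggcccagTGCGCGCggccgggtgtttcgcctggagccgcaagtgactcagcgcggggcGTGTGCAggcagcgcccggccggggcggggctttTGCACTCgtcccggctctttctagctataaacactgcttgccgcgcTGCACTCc
MT1X: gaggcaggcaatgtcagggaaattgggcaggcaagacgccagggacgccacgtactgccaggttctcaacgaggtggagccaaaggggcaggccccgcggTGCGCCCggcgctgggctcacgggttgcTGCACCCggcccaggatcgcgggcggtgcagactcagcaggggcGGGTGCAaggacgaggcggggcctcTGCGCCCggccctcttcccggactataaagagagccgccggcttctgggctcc
SLC30A1: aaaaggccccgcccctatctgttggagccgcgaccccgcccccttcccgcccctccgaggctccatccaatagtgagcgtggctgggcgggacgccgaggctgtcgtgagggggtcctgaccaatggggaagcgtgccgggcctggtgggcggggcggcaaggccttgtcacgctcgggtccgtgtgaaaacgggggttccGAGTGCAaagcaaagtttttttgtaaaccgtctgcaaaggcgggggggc

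In these stretches 7 matches stand in MT2A, 4 in MT1X and 1 in SLC30A1, and the other matches lie outside these stretches. The matches are letters only and do not show binding. SLC30A4, which fell most among the exporters, held 1 match, and MTF1 held none.

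Genes of related metal pathways, from lists chosen with earlier results of these data known, also moved both ways. The counts for these lists stand beside 34.4% called higher and 34.8% called lower over all tested genes. Of 10 tested genes of other zinc handling, 4 rose, 3 fell and 3 were not called. METAP1, an aminopeptidase that receives zinc from the ZNG1 chaperones, rose (log2 fold change 1.32), and ZNF658, a repressor of zinc-responsive genes, fell (log2 fold change -0.58). The CBWD copies of the ZNG1 chaperone gene did not move together: CBWD1 (0.26), CBWD5 (0.43) and CBWD6 (0.35) were called higher, CBWD2 was called lower (-0.29) and CBWD3 was not called (0.20), all as log2 fold changes. They are near-identical, and the split of reads between them is uncertain. Among 16 tested copper genes 9 rose, 3 fell and 4 were not called. The copper chaperone ATOX1 (0.74), MEMO1 (0.69) and the metalloreductase STEAP3 (0.66) rose, and the copper pump ATP7A fell (-0.99), all as log2 fold changes. Among 19 tested iron and manganese genes 7 rose, 8 fell and 4 were not called. The transferrin receptor TFRC (0.66) and the iron chaperone PCBP1 (0.66) rose, and the haem transporter SLC48A1 (-1.08) and the mitochondrial iron importer SLC25A37 (-0.64) fell.

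The same shares over all tested genes, 34.4% higher and 34.8% lower, stand beside the next counts. Of 11 tested genes of citrate metabolism, 4 rose, 5 fell and 2 were not called. The citrate synthase gene CS (0.75) and GOT1, for the cytosolic aspartate aminotransferase (1.03), rose, while IDH3A (-1.11) and ACO1, for the cytosolic aconitase (-0.61), fell, all as log2 fold changes. Of 19 tested zinc enzymes of the secretory pathway, the compartment that several ZnT proteins supply, 10 fell, 4 rose and 5 were not called. Their log2 fold changes had a median of -0.35. The membrane peptidase MME (-3.17), the phosphodiesterase family member ENPP5 (-2.96) and the carbonic anhydrase CA12 (-1.84) fell, and the metalloproteinase MMP16 rose (2.03), all as log2 fold changes.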

How the data were processed

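Per the labels, the libraries were made from polyA RNA and read in pairs. The tools fastp, HISAT2 and HTSeq and the build GRCh38 are listed, without versions, in the submitters' processing notes. Neither annotation nor strandedness of counting is given in the sources used here. The authors deposited unnormalized counts by gene symbol. The deposited FPKM table scales the same counts by gene length and library total. One length per gene fitted its libraries with counts within 0.1% for 23998 of 23998 genes. Genes counted in only one library are included and could not deviate. Columns were tied to samples by name.

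Counts were tested with edgeR 4.0.16 (R 4.3.3) by the robust quasi-likelihood test with TMM scaling and the default filter (minimum count 10), over all 15422 genes that passed, with 2-sided Benjamini-Hochberg adjusted p-values. The biological coefficient of variation was 7.41%. The SE is derived from the F statistic. The test was checked on simulated data. Intervals and floors (3 counts) cover counting error only, and floors take the other group's counts as exact. The alternatives were DESeq2 size factors and the DESeq2 1.42.0 Wald test, library totals, upper-quartile factors, no filter, a tighter one (50 counts on average and 1 CPM or more in 3 libraries), limma 3.58.1 (voom, and trend on log2 FPKM with a pseudocount of 0.1 or 1, where 3 libraries reached 0.1 FPKM), the replicate number as a block, an offset for gene length and leaving out each library.

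The genes and lists were chosen with earlier results of these data known. All the zinc genes are accounted for. Other lists are shown by at most 4 called genes, those with the largest absolute log2 fold changes among genes averaging 100 counts or more. CBWD1, CBWD2 and CBWD3 are given in addition, beside the CBWD copies so chosen. Some results on single genes of these lists are not reported here. Promoter sequences come from RefSeq, and gene coordinates, exon overlaps and shared 75-base stretches from GENCODE release 29. Protein sequences were not analysed here.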

Additional observations from a re-analysis of the deposited data

How the results depend on the processing

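Over 23 tested zinc genes and 17 alternatives, 365 of 389 values kept the direction and the side of the threshold, and 16 genes did so under every alternative run for them. The call was lost in 10 values, all of SLC30A3 and SLC30A9, and gained in 7, of SLC30A6, SLC39A14 and MT1F. The sign turned only in SLC39A1 and SLC39A7, which were called nowhere. SLC39A1 had log2 fold changes of -0.038 with library totals alone, -0.038 with limma-trend at a pseudocount of 0.1 and -0.037 at 1. SLC39A7 had -0.043 with library totals, -0.045 with limma-trend at a pseudocount of 0.1 and -0.044 at 1, and ran from -0.001 (without LNCaP-ENZR 2) to 0.098 when one library was left out. Without one library at a time, 4 to 6 exporters, 8 importers and 2 metallothioneins were called, against 6, 8 and 2 with all libraries. Without a filter 4 metallothioneins were called, MT1E and MT1G being added, since the filter had left them out. SLC39A2 and MT1F did not pass the stricter filter and have no value there. The replicate block left 6 exporters, 8 importers and 2 metallothioneins called and changed no call. Same-numbered libraries hardly deviated together (correlations of 0.013, 0.027 and 0.065), so the numbers were not taken as pairs. Depth limits SLC30A8, SLC30A10, SLC39A5, MT1E, MT1G and MT1M, which had at most 21 counts over a group.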

Other observations

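The genes next to the 2 zinc transporters that fell most, and next to the metallothionein cluster, were read as a description, chosen after those values were seen, over tested genes of the deposited table within 250 kb. Beside SLC30A4 on chromosome 15, SQOR, a mitochondrial sulphide-oxidising enzyme, averaged 54.5 ± 2.30 CPM in LNCaP-ENZR and 97.4 ± 2.71 CPM in LNCaP-WT (n = 3, edgeR log2 fold change -0.84, adjusted p = 3.3e-10). BLOC1S6, a subunit of a complex that builds lysosome-related organelles, was also called lower there (log2 fold change -0.31, adjusted p = 0.001), while SPATA5L1 (0.66, adjusted p = 6e-06) and the creatine synthesis gene GATM (1.29, adjusted p = 0.004) were called higher. Beside SLC39A8 on chromosome 4, the lysosomal mannosidase gene MANBA averaged 60.2 ± 0.943 CPM in LNCaP-ENZR and 107.7 ± 0.729 CPM in LNCaP-WT (n = 3, log2 fold change -0.84, edgeR adjusted p = 1.2e-10). NFKB1, between SLC39A8 and MANBA, was not called (log2 fold change -0.06, adjusted p = 0.44). On the other side of SLC39A8, BANK1, a B-cell scaffold gene, was at 0 CPM in every LNCaP-ENZR library and averaged 1.33 ± 0.251 CPM in LNCaP-WT (n = 3, called lower, edgeR adjusted p = 9.8e-08). Along the metallothionein cluster on chromosome 16, the nearest tested gene past MT1X, the nucleoporin gene NUP93, averaged 84.8 ± 2.96 CPM in LNCaP-ENZR and 35.5 ± 1.58 CPM in LNCaP-WT (n = 3, log2 fold change 1.26, edgeR adjusted p = 2.2e-12). On the other side, the nearest tested gene, BBS2, had a log2 fold change of -0.19 (adjusted p = 0.0076). Farther out, OGFOD1 was called higher (log2 fold change 0.27) and NUDT21 was not called (-0.11, adjusted p = 0.10).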
